A study of Rattus norvegicus with 12 samples.

Results

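Dextromethorphan, a cough suppressant that acts on glutamate and sigma receptors and is cleared by liver cytochrome P450 enzymes, was given to rats on top of caffeine, an adenosine receptor antagonist that is cleared by the same enzyme superfamily. The comparison described here sets the 3 liver libraries of rats given both drugs (CAF+DEX) against the 3 libraries of rats given caffeine alone (CAF). Its members are the features of the deposited microRNA table with a value above 0 in at least 3 of these 6 libraries, which left 276 of 444 features, 270 of them microRNAs. Of the other 168 features, 122 were listed at 0 in all 6 libraries and 46 were above 0 in 1 or 2 of them. At the edge of this rule, the 23 features above 0 in exactly 3 libraries reached at most 8 reads in any of the 6, and the 13 above 0 in exactly 2 reached at most 3.

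All rats were male Sprague-Dawley (Jcl:SD), an outbred stock, aged 7 weeks at dosing, and were dosed by mouth on 5 consecutive days. Control rats received sterile distilled water, CAF rats 120 mg/kg caffeine, DEX rats 100 mg/kg dextromethorphan hydrobromide monohydrate, and CAF+DEX rats both drugs at those doses. Each group held 5 rats, of which 3 libraries per group were deposited, and livers were taken 1 h after the last dose. The labels do not tie the libraries to separate rats, and p-values reflect variation among these libraries, which may be technical. Depth, recovered from the deposited values, was 2863572 to 3107874 reads in the CAF libraries and 3145320 to 3360465 in the CAF+DEX libraries, 2 ranges that do not overlap. The Control libraries had 3103016 to 3418568 reads and the DEX libraries 2941725 to 3363795. The 10 most abundant features took 58.4 to 60.5% of the reads of each library, and Mir192, a hepatocyte microRNA, took 14.05 to 16.36%, as fits the tissue label.

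A microRNA is cut from a hairpin transcript and guides a silencing complex to messenger RNAs whose 3′ ends pair with its seed, bases 2 to 8. Several microRNAs that are rare in hepatocytes are read as signs of other processes or cells: miR-132 and miR-212 share 1 primary transcript that responds to the cyclic AMP factor CREB, miR-34b and miR-34c share 1 that responds to p53, and miR-155 is made by activated immune cells. In the liver, microRNAs of hepatocytes dominate, and those of blood cells and of the vessel wall come with the tissue.

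The mature sequences below belong to the features on which the results turn. They are shown to make visible which of them share a seed, in capitals, and so can be read as 1 family. The table gives 1 value per hairpin, so the arm that was read is not resolved.
rno-miR-132-3p: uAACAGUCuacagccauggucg
rno-miR-212-3p: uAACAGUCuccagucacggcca
rno-miR-34a-5p: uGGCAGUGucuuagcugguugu
rno-miR-34b-5p: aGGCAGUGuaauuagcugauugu
rno-miR-34c-5p: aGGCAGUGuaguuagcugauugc
rno-miR-449a-5p: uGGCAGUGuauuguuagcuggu
rno-miR-155-5p: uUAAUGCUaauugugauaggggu
rno-miR-142-3p: uGUAGUGUuuccuacuuuaugga
rno-miR-136-3p: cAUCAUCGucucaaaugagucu
rno-miR-376b-3p: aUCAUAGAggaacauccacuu
rno-miR-184: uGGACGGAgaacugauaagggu
rno-miR-1b: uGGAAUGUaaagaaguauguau
rno-miR-206-3p: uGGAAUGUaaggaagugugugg
miR-132 and miR-212 carry 1 seed, the 4 members of the miR-34 and miR-449 family another, and the muscle microRNAs miR-1b and miR-206 also share theirs. The sequences are RefSeq entries of rat assembly GRCr8, where 240 of the 270 tested microRNAs matched by symbol. Positions given below are those of the deposited table, on build rn7.

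No feature differed between CAF+DEX and CAF after adjustment: 0 of 276 (0%) had an adjusted p under 0.05 in limma-trend with Benjamini-Hochberg adjustment, and the smallest adjusted p was 0.851. Before adjustment, 15 features (5.43%) had p under 0.05, of which 9 (3.26%) were higher and 6 (2.17%) lower in CAF+DEX. limma-voom on the recovered reads also called 0 features, with 14 under 0.05 before adjustment. The values of the 3 CAF+DEX libraries lay wholly above or below those of the 3 CAF libraries in 21 features (7.61%), 10 above (3.62%) and 11 below (3.99%). Differences were as often above 0 as below, 138 features each way (50%). None of the features described below therefore passed the test in this comparison, and their values are given as levels and differences with their errors.

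How much of a difference could have been missed depended on abundance. All 41 features averaging at least 10000 reads had a 95% interval of the difference that stayed within 1.5-fold in either direction, and in 36 of them it stayed within 1.25-fold. Of the 51 features averaging 1000 to 10000 reads, 46 had an interval within 1.5-fold. That number was 34 of 43 for 100 to 1000 reads, 9 of 52 for 10 to 100 reads and 0 of 89 under 10 reads. Over all features, 130 of 276 (47.1%) had an interval within 1.5-fold and 180 within 2-fold. The same rise in precision was visible in the standard error of the log2 difference, whose median was 0.444 under 10 reads and 0.0752 from 10000 reads. Pairs of libraries from 1 group differed over much the same range as pairs from both. Over the 128 features with at least 100 reads in all 6 libraries, the median absolute log2 difference of a pair of libraries was 0.0974 to 0.152 for the 9 pairs of a CAF and a CAF+DEX library, 0.0851 to 0.125 for the 3 pairs within CAF, and 0.105 to 0.15 for the 3 pairs within CAF+DEX.

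**Figure D1:**
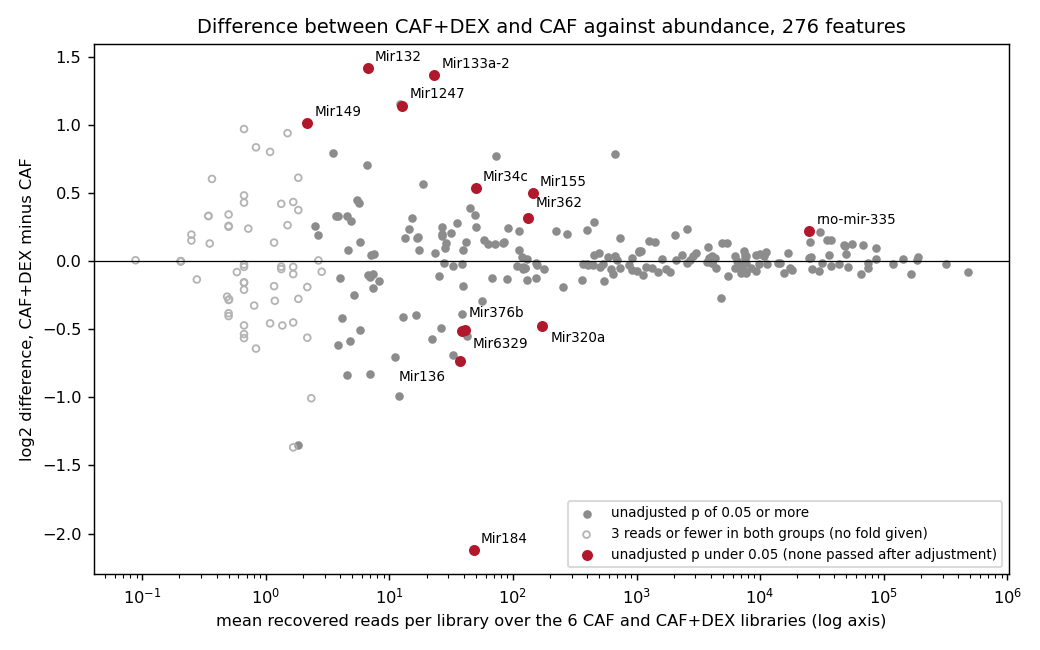
Each point is 1 of the 276 features: the x axis gives its mean recovered reads per library over the 6 libraries on a log scale, and the y axis its log2 difference, CAF+DEX minus CAF. The points narrow from left to right; 13 of the 15 features with an unadjusted p under 0.05 are red and named, the other 2 average 3 reads or fewer in both groups and are among the open points, and none passed after adjustment.

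The 10 most abundant features of the deposited table, which has no feature named Mir122, stayed close to their level under caffeine alone. Mir192 (chr1, a p53-responsive hepatocyte microRNA) had 1484872, 1448946 and 1361249 FPKM in CAF libraries 1, 2 and 5 and 1320735, 1277684 and 1464467 FPKM in CAF+DEX libraries 1, 2 and 5, and this order of libraries is kept below. Its groups overlapped, with a log2 difference of -0.08 and a 95% interval of -0.21 to 0.05. Mir101-2 differed by -0.02 on the log2 scale (SE 0.06), Mirlet7f2 by 0.01 (SE 0.05), Mir26b by 0.03 (SE 0.05), Mir148a by 0.02 (SE 0.08), Mir16 by -0.02 (SE 0.07), Mir30a by -0.05 (SE 0.07), Mir101a by 0.02 (SE 0.06) and Mir194-2 by -0.01 (SE 0.06). Mir21, which is found in hepatocytes and in many other cells and rises in injured tissue, was the least even of the 10: it had 593050, 576829 and 633851 FPKM in CAF and 698358, 525614 and 487422 in CAF+DEX. One CAF+DEX library was above and 2 were below every CAF library, and the log2 difference was -0.09 (SE 0.11).

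Other groups of microRNAs with known liver roles had medians near 0 as well, against a median of -0.00 over all 276 features. Of the 12 hepatocyte microRNAs, 4 were above 0 and 8 below, with a median of -0.02, and with quantile normalization 5 were on each side. Among the 10 microRNAs reported to act on transcripts of cytochrome P450 enzymes or nuclear receptors, 5 were above and 5 below (median -0.01). They ranged from -0.27 for Mir34a to 0.50 for Mir155, both described below. This list includes Mir27b, a regulator of drug-metabolising enzymes. Mir27b had 211432, 210881 and 201824 FPKM in CAF and 179444, 200778 and 206284 in CAF+DEX, a log2 difference of -0.09 (SE 0.06). The 10 microRNAs of lipid and glucose metabolism divided 5 to 5 (median 0.01). Mir802 stood at -0.07 (SE 0.10) and Mir107 at -0.08 (SE 0.09), while Mir26a and Mir26a-2 each stood at 0.16 (SE 0.08). The 13 members of the miR-17-92 cluster and its paralogs, which promote cell division, divided 6 to 7 (median -0.01). Mir29b1 and Mir29b-3, copies of a microRNA that represses collagen transcripts, stood at 0.04 and 0.03 and count as 1 signal, since they share reads.

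The 9 let-7 members, whose microRNAs hold back growth-promoting transcripts, were above 0 by a small amount with all libraries in the fit (median 0.05, range 0.01 to 0.13). With quantile normalization 6 were above 0 and 2 below, the remaining member lying at 0. Without CAF+DEX library 2 the division was 6 above to 3 below (median 0.03), and without CAF library 1 it was 7 to 2 (median 0.03). The median was 0.13 without CAF+DEX library 5 and 0.09 without CAF library 5. Several copies encode the same mature microRNA, so the members are not separate observations. let-7 reads made up 15.48 to 16.88% of the CAF libraries and 15.69 to 18.20% of the CAF+DEX libraries, 2 ranges that overlap. Adding dextromethorphan without caffeine gave a let-7 median of 0.12.

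Among the features with the smallest p-values, Mir132 (chr10:60023696-60023796), the CREB-responsive microRNA, came first. It was at 3.46, 12.7 and 13.2 FPKM in CAF and at 47.2, 21.3 and 26.5 FPKM in CAF+DEX. The groups did not overlap. Control (17.4 to 24.7 FPKM) and DEX (16.8 to 26.5 FPKM) lay above all CAF libraries. Of the CAF+DEX libraries, only library 2 (21.3 FPKM) lay within the Control and DEX ranges, and the others were higher. The log2 difference was 1.42 (SE 0.39, 95% interval 0.57 to 2.26), and 0.53 with a pseudocount 10 times larger. These levels rest on 1, 4 and 4 reads in CAF and 15, 7 and 9 in CAF+DEX, and the adjusted p was 0.851. Mir212, which is cut from the same transcript and has the same seed, averaged 3 reads or fewer in both groups and is given no fold.

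Of the miR-34 family, Mir34c (chr8:51409726-51409802) was at 161, 150 and 192 FPKM in CAF and at 244, 246 and 242 FPKM in CAF+DEX. All 3 CAF+DEX libraries were higher than all 3 CAF libraries, and Control libraries were at 224 to 348 FPKM. The log2 difference was 0.53 (SE 0.19, 95% interval 0.12 to 0.95), it lay between 0.46 and 0.63 when 1 library was left out, and the adjusted p was 0.851. Mir34b, its neighbour on the same transcript, was at 43.7, 42.1 and 69.4 FPKM in CAF and at 64.3, 73.2 and 54.9 in CAF+DEX, with overlapping groups and a log2 difference of 0.32 (SE 0.29). Mir34a, encoded on another chromosome and the main p53-induced member in many tissues, was far more abundant and lay the other way. It had 13948, 14956 and 21042 FPKM in CAF and 14828, 13497 and 12490 FPKM in CAF+DEX, and its log2 difference was -0.27 (SE 0.18). Without CAF library 5, the highest, that value was -0.09. Mir449a, the fourth member with this seed, differed by 0.20 (SE 0.26). The family as a whole thus had 3 members above 0 and 1 below, and of the 6 microRNAs listed for p53 and stress 2 were above and 4 below.

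Mir155 (chr11:23774654-23774718), the microRNA of activated lymphocytes and macrophages, was at 500, 668 and 569 FPKM in CAF and at 1091, 733 and 678 FPKM in CAF+DEX. Its groups did not overlap, although the highest CAF and the lowest CAF+DEX library were close. Control libraries (833 to 902 FPKM) and DEX libraries (821 to 846 FPKM) were above all CAF libraries. The log2 difference was 0.50 (SE 0.17, 95% interval 0.13 to 0.87, adjusted p 0.851), and without CAF+DEX library 1 it was 0.29.

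The other markers of blood lineages lay on the same side of 0 as Mir155 but overlapped between the groups. Mir142, found in all blood cells, was at 93568, 80559 and 70813 FPKM in CAF and at 83044, 102689 and 97311 in CAF+DEX, a log2 difference of 0.21 (SE 0.12). Mir150, a microRNA of mature lymphocytes, differed by 0.24 (SE 0.18), Mir342 by 0.17 (SE 0.12), Mir146a, which dampens inflammatory signalling, by 0.14 (SE 0.09), and Mir223, of neutrophils and macrophages, by 0.14 (SE 0.10). All 6 leukocyte microRNAs were thus above 0, with a median of 0.19, also with quantile normalization (median 0.12), with median-of-ratios scaling and in limma-voom. Together they took 1.746 to 2.150% of reads in CAF, 1.958 to 2.403% in CAF+DEX, 2.634 to 2.986% in Control and 2.588 to 2.966% in DEX. The CAF and CAF+DEX ranges overlapped, and both lay below those of the groups without caffeine. In bulk liver, fewer cells of a type and less RNA per cell cannot be told apart. The leukocyte median was 0.10 without CAF+DEX library 2 and 0.11 without CAF library 5. Single members moved with the same libraries. Without CAF+DEX library 2, Mir150 stood at 0.05, Mir223 at 0.04 and Mir146a at 0.07, and without CAF library 5, Mir142 stood at 0.11, Mir150 at 0.13, Mir342 at 0.06 and Mir223 at 0.07. Quantile normalization gave 0.06 for Mir342 and 0.01 for Mir146a.

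Red cell microRNAs were 3 in number: Mir144 differed by 0.19 (SE 0.20), its neighbour Mir451a by 0.29 (SE 0.19) and rno-mir-486 by 0.22 (SE 0.22). One CAF library set much of this comparison apart: Mir144 was at 10978 FPKM in CAF library 1 and at 6079 and 5791 in CAF libraries 2 and 5, while the CAF+DEX libraries lay between, at 7888, 8791 and 8305. The erythroid median was 0.49 without CAF library 1 and 0.03 without CAF library 5. Of the 10 inflammation microRNAs, 8 were above 0 and 2 below (median 0.14), and with quantile normalization 7 were above and 3 below (median 0.01).

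**Figure D2:**
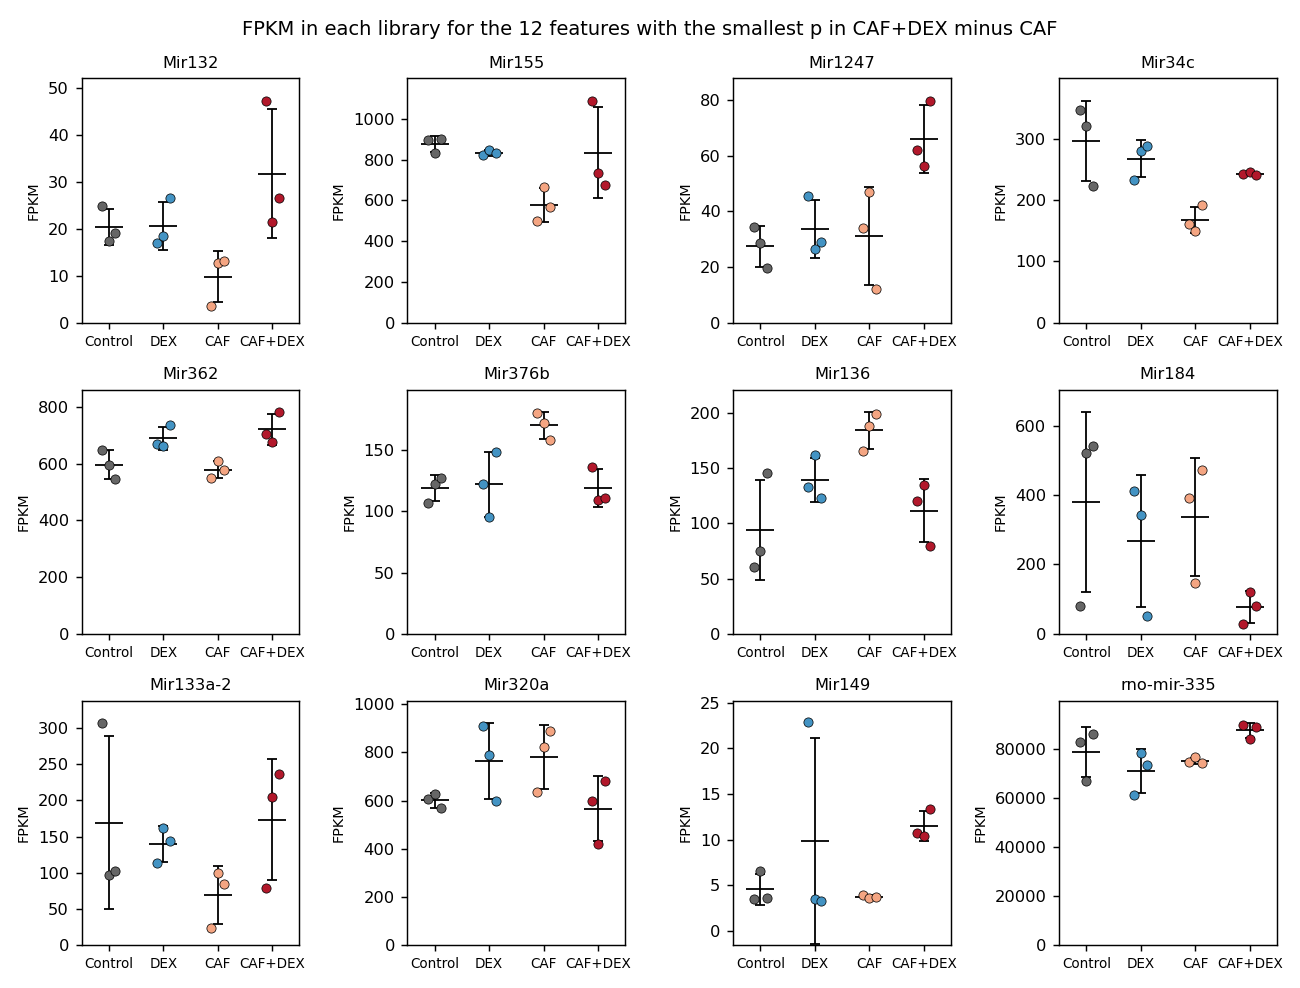
FPKM (y axis, from 0 except where an SD bar reaches below it) in each of the 12 libraries, by group (x axis), for the 12 features with the smallest p in CAF+DEX minus CAF among those averaging over 3 reads in a group; points are libraries, the long bar is the mean and the whiskers are 1 SD (n = 3). Mir132, Mir34c and Mir155 are lower in all 3 CAF libraries than in any library of the other groups, and Mir184 and Mir133a-2 spread widely within groups.

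Markers of the vessel wall, connective tissue and ducts lay on both sides of 0. The 6 microRNAs of stellate cells, fibroblasts and smooth muscle divided 3 to 3 (median -0.02), among them Mir143 at 0.12 (SE 0.13) and Mir199a2 at -0.05 (SE 0.16). Mir214, encoded beside Mir199a2, was at 102, 81.9 and 89.3 FPKM in CAF and at 73.7, 67.1 and 51.4 in CAF+DEX, without overlap, at a log2 difference of -0.49 (SE 0.34). The epithelial microRNAs of bile ducts varied widely between libraries of 1 group. Mir200b had 6006, 3353 and 6635 FPKM in CAF and 5268, 8191 and 3219 in CAF+DEX, with a log2 difference of 0.02 (SE 0.36). The endothelial Mir126a was seen in only 12 to 24 reads per library in these 6 libraries and differed by -0.40 (SE 0.31), a value of -0.19 without CAF library 5 and of -0.62 without CAF library 1.

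Muscle microRNAs were present at low levels and uneven. Mir133a-2 (chr3:167496996-167497054) was at 22.7, 99.1 and 84.7 FPKM in CAF and at 78.1, 205 and 236 FPKM in CAF+DEX, a log2 difference of 1.36 (SE 0.58, 95% interval 0.11 to 2.62, adjusted p 0.851). The groups overlapped, and without CAF library 1 the difference was 0.75. Mir1b, which lies close by on the same chromosome, was at 941, 2631 and 1918 FPKM in CAF and at 1616, 3736 and 4053 in CAF+DEX. Its log2 difference was 0.79 (SE 0.44), and the lowest library was again CAF library 1, without which the value was 0.37. Mir206, the skeletal muscle microRNA with the seed of miR-1b, had 37.4, 7.67 and 35.7 FPKM in CAF and 49.2, 29.3 and 113 in CAF+DEX, a log2 difference of 1.15 (SE 0.61). That value was 0.55 without CAF library 2, 0.66 without CAF+DEX library 5 and 0.60 with the larger pseudocount. Mir499a, carried by a myosin gene, stayed at 2423, 2302 and 2405 FPKM in CAF and 2392, 2588 and 2472 in CAF+DEX (0.06, SE 0.09). Mir133b and Mir208b, also in the muscle list, averaged 3 reads or fewer in both groups and are given no fold. As a list, 5 of 6 muscle microRNAs were above 0, Mir208b among them. The list median was 0.52, and it was 0.24 without CAF library 1 and 0.34 without CAF+DEX library 5. With the larger pseudocount it was 0.33, and over the 4 members above 0 in all 6 libraries it was 0.97. Together the 6 took 0.024 to 0.038% of reads in CAF, 0.030 to 0.053% in CAF+DEX and 0.034 to 0.066% in Control.

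The microRNAs of the imprinted Dlk1-Dio3 region on chromosome 6, which are made from the maternal chromosome and are abundant in fetal tissue and brain, lay mostly below their level under caffeine alone. The list runs from Mir770 to Mir410. Of its 43 features, 17 passed the rule on values above 0, and 15 of these were below 0 and 2 above. Quantile normalization and median-of-ratios scaling gave the same counts, and limma-voom gave 14 below and 3 above. The median log2 difference was -0.51, against -0.13 for dextromethorphan without caffeine. These features are neighbours processed from long shared transcripts and are rare: 8 of the 17 average 3 reads or fewer in both groups. All 17 together made up 0.006 to 0.011% of reads in CAF and 0.004 to 0.008% in CAF+DEX, ranges that overlap. They made up 0.005 to 0.009% in Control and 0.005 to 0.007% in DEX, so the CAF+DEX range also overlapped that of Control. Without CAF library 2 the median was -0.22 (12 below, 5 above), and without CAF+DEX library 5 it was -0.21 (12 below, 5 above). A pseudocount 10 times larger gave a median of -0.12 with 15 below and 2 above, and with no filter 18 of 29 features were below and 5 above (median -0.18).

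Within the region, Mir136 (chr6:128549096-128549177), which lies antisense to the retrotransposon-derived gene Rtl1, was at 166, 188 and 199 FPKM in CAF and at 120, 135 and 79.8 in CAF+DEX. The groups did not overlap, Control spread from 60.8 to 145 FPKM, and the log2 difference was -0.73 (SE 0.30, 95% interval -1.39 to -0.08, adjusted p 0.851). Its neighbours Mir127 and Mir337 stood at -0.69 (SE 0.61) and -0.70 (SE 0.39) with overlapping groups. Mir127 varied widely within each group: it had 101, 202 and 72.1 FPKM in CAF and 62.3, 184 and 27.6 in CAF+DEX, so that library 2 of each group was far above the others.

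Further along, Mir376b (chr6:128737456-128737541) was at 181, 172 and 159 FPKM in CAF and at 137, 109 and 111 in CAF+DEX, again without overlap, and Control was at 107 to 127. Its log2 difference was -0.51 (SE 0.20, 95% interval -0.95 to -0.07, adjusted p 0.851). Mir379 and Mir411, at the start of the distal group, differed by -0.55 (SE 0.48) and -0.18 (SE 0.44). Mir323 had 3, 3 and 2 reads in CAF and 2, 0 and 0 in CAF+DEX, too few for a fold. Mir1247 (chr6:129284560-129284641) lies on the same chromosome past Mir410, where the list ends, so the counts above leave it out. It lay the other way without overlap, at 34.1, 47.1 and 12.2 FPKM in CAF and at 62, 56.3 and 79.8 in CAF+DEX. The log2 difference was 1.14 (SE 0.40, adjusted p 0.851), and 0.66 without CAF library 5, which held 3 reads.

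**Figure D3:**
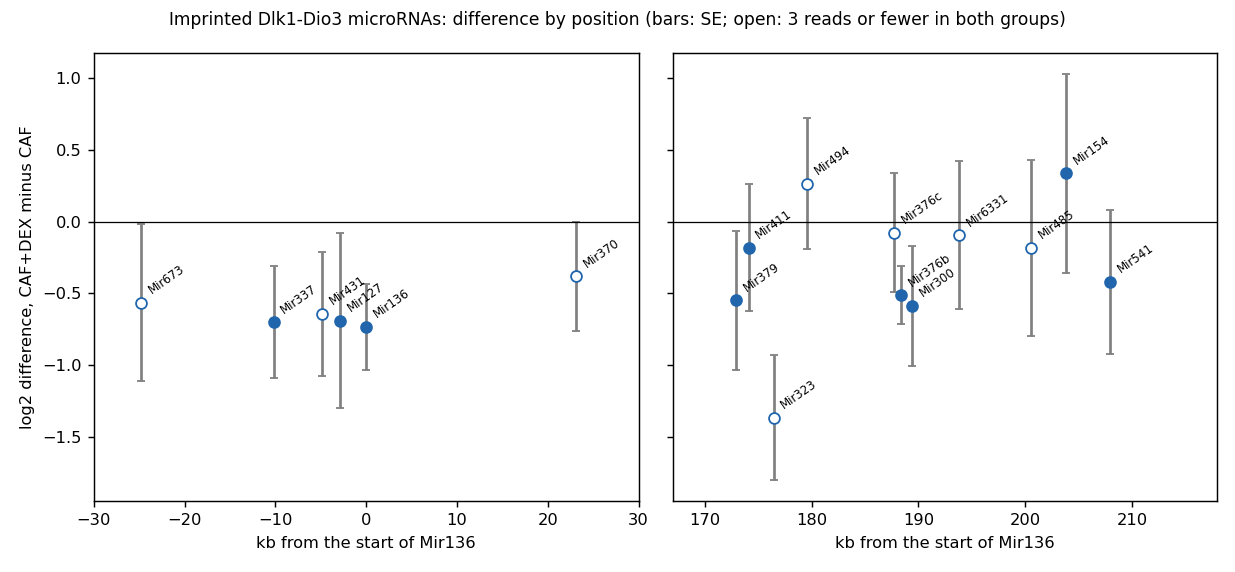
Log2 difference, CAF+DEX minus CAF (y axis; bars are 1 SE), of the 17 imprinted microRNAs against their distance in kb from the start of Mir136 (x axis, cut between the proximal group on the left and the distal group on the right). Open points average 3 reads or fewer in both groups; 15 points lie below 0 and 2 above, and the bars of many reach 0.

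Except for Mir26a and Mir26a-2, which are in the lipid and glucose list, the remaining features with small p-values belong to no list. Mir184 (chr8:90343134-90343210), a microRNA best known from the cornea and lens, was at 392, 146 and 471 FPKM in CAF and at 28.9, 120 and 81.2 FPKM in CAF+DEX. The groups did not overlap, but Control (81 to 540 FPKM) and DEX (50.2 to 411 FPKM) each spread widely. The log2 difference was -2.12 (SE 0.88), with a 95% interval of -4.03 to -0.21 and an adjusted p of 0.851. Mir320a (chr15:45516392-45516473), whose hairpin is processed without Drosha, was at 635, 823 and 889 FPKM in CAF and at 597, 420 and 682 in CAF+DEX, with a log2 difference of -0.48 (SE 0.20) and overlapping groups. Without CAF+DEX library 2 that value was -0.28.

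Mir362 (chrX:15254615-15254679) was at 548, 609 and 579 FPKM in CAF and at 704, 677 and 783 in CAF+DEX, with no overlap and a log2 difference of 0.31 (SE 0.12, adjusted p 0.851). Of its neighbours in the X-linked cluster, Mir532 stood at -0.05, Mir188 at 0.08 and Mir500 at 0.10, so that 3 of the 4 were above 0. The imprinted rno-mir-335 (chr4:59357769-59357866), carried by the Mest gene, was the one abundant feature with an unadjusted p under 0.05. It was at 74778, 76639 and 74313 FPKM in CAF and at 89940, 84382 and 89079 in CAF+DEX, without overlap, while Control spread from 67040 to 86263. The log2 difference was 0.22 (SE 0.10, 95% interval 0.00 to 0.44, adjusted p 0.876), and it lay between 0.20 and 0.25 when 1 library was left out.

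Mir26a and Mir26a-2, which share reads and count as 1 signal, each differed by 0.16 (SE 0.08). Mir26a was at 104221, 123380 and 121381 FPKM in CAF and at 135074, 133639 and 119706 in CAF+DEX, with overlapping groups. Mir6329 lay lower without overlap (165, 191 and 157 against 108, 135 and 114 FPKM), at a log2 difference of -0.51 (SE 0.23). Mir204, carried by the Trpm3 gene, differed by 0.77 (SE 0.39), and by 0.29 without CAF library 1, its lowest. Mir149 rested on 1 read in each CAF library and on 3, 3 and 4 in CAF+DEX (1.01, SE 0.45). Mir874 stood at -0.83 (SE 0.38), Mir3585 at -0.99 (SE 0.52), Mir702 at 0.79 (SE 0.39) and Mir138-2 at 0.71 (SE 0.36), all on few reads.

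Grouping by shared seed gave 12 families of at least 3 tested members, among the 240 tested microRNAs with a matched sequence. Tested microRNAs without one, or in smaller groups, are left out, so a family can lack members. Outside the family of miR-34 and miR-449 (median 0.26), the medians ran from -0.09 to 0.10. The family of Mir130a, Mir130b and Mir301b had 3 of 3 members above 0 (median 0.08), and that of Mir148a, Mir148b and Mir152 had a median of -0.00. The features that the table calls Mir8 and Mir9 carry mature miR-7 sequences in RefSeq, and with Mir7-1 they had 3 of 3 members below 0 (median -0.09). They stand here for miR-7 and not for the neuronal miR-9, although Mir9 was entered in the list for neurons and pancreas, where 3 of 9 tested members were above 0 and 6 below (median -0.06). By position, 11 clusters of at least 3 members were found. In the cluster of Mir24-2, Mir27a and Mir23a 3 of 3 were above 0 (median 0.05), and in those of Mir25, Mir93 and Mir106b and of Mir182, Mir96 and Mir3553 3 of 3 were below (medians -0.05 and -0.11). The proximal imprinted cluster of Mir337, Mir431, Mir127 and Mir136 had 4 of 4 below (median -0.70). These clusters are named because all their members lay on 1 side, and the remaining clusters had members on both sides of 0. Among the latter, the cluster of Mir293, Mir292 and Mir291a had a median of 0.48, with 2 members at 3 reads or fewer in both groups.

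**Figure D4:**
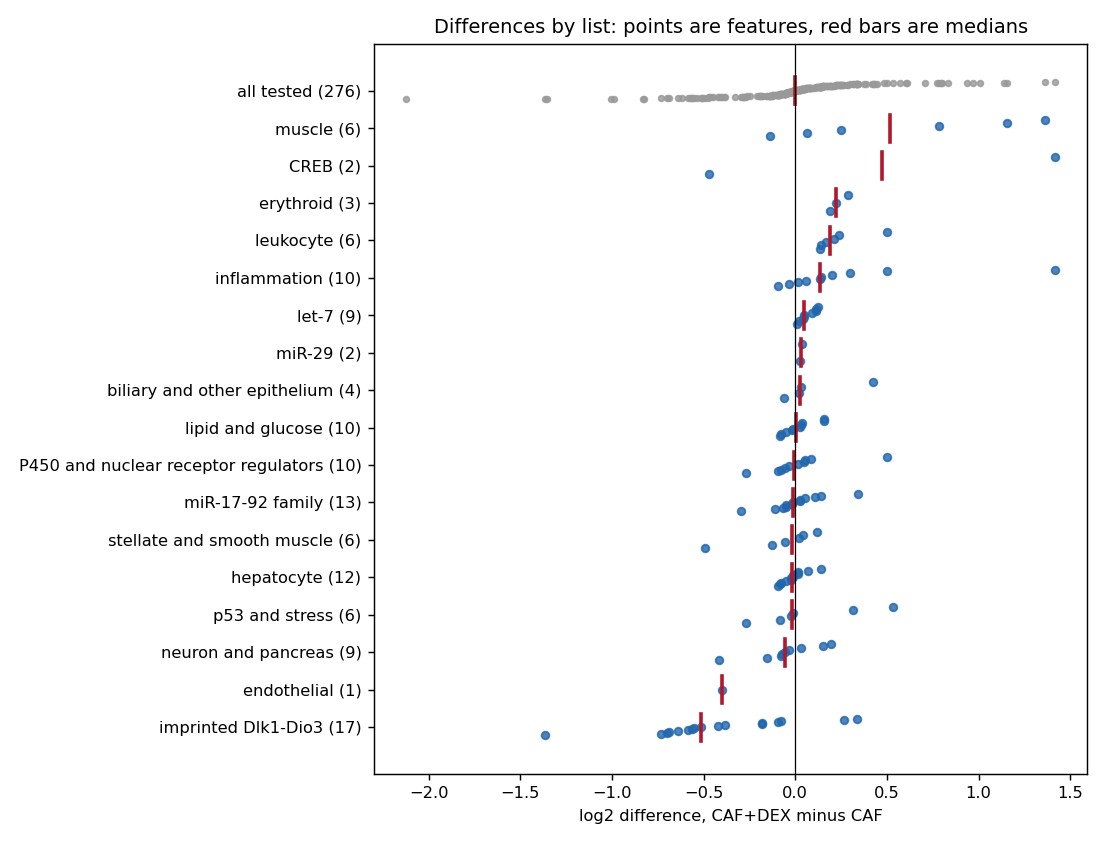
Log2 difference, CAF+DEX minus CAF (x axis), of each tested feature (points) by list (rows, with the number tested), with all 276 features in grey and the median of each list as a red bar. The medians of most lists lie near 0. To the right lie muscle (0.52), CREB (0.47), erythroid (0.22), leukocyte (0.19) and inflammation (0.14). The imprinted region (-0.51) and the 1 endothelial feature (-0.40) lie to the left, and the lists share members. The CREB median is of 2 features on opposite sides of 0, Mir132 above and Mir212 below, the latter at 3 reads or fewer in both groups.

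The same addition without caffeine, DEX minus Control, shares no library with the comparison above. It also gave 0 calls (0%), with 13 features (4.71%) under an unadjusted p of 0.05, and limma-voom gave 0 calls, with 13. Mir132 differed by -0.00 there (SE 0.39), Mir155 by -0.07 (SE 0.17), Mir34c by -0.13 (SE 0.19), rno-mir-335 by -0.15 (SE 0.10), Mir376b by 0.02 (SE 0.20) and Mir136 by 0.64 (SE 0.30). Mir362 stood at 0.21 (SE 0.12) and Mir26a at 0.15 (SE 0.08). The leukocyte median was -0.07 and the erythroid median -0.07.

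Whether the addition differed with and without caffeine was tested directly as the interaction. No feature passed (0 of 276, 0%), 15 (5.43%) had an unadjusted p under 0.05, and limma-voom gave 0 calls and 13. Mir136 had the smallest p, with an interaction of -1.37 on the log2 scale (SE 0.43, adjusted p 0.865). The interaction was 1.42 (SE 0.55) for Mir132, 0.58 (SE 0.24) for Mir155, 0.66 (SE 0.27) for Mir34c, 0.37 (SE 0.14) for rno-mir-335 and -0.80 (SE 0.29) for Mir320a, each with an adjusted p of 0.865. Mir218-2 was at 1013, 1087 and 1103 FPKM in CAF and at 1227, 1279 and 1247 in CAF+DEX, a log2 difference of 0.23 (SE 0.14), against -0.33 without caffeine. For Mir218-2, DEX libraries 1, 2 and 4 were at 788, 784 and 1190 FPKM and Control at 1105 to 1203, so only DEX library 4 lay within the Control range. The interaction of 0.56 (SE 0.20) for Mir218-2 did not pass in the fit of all 12 libraries and was the 1 call made without DEX library 4. Mir362 and Mir26a had interactions of 0.10 (SE 0.17) and 0.01 (SE 0.11).

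**Figure D5:**
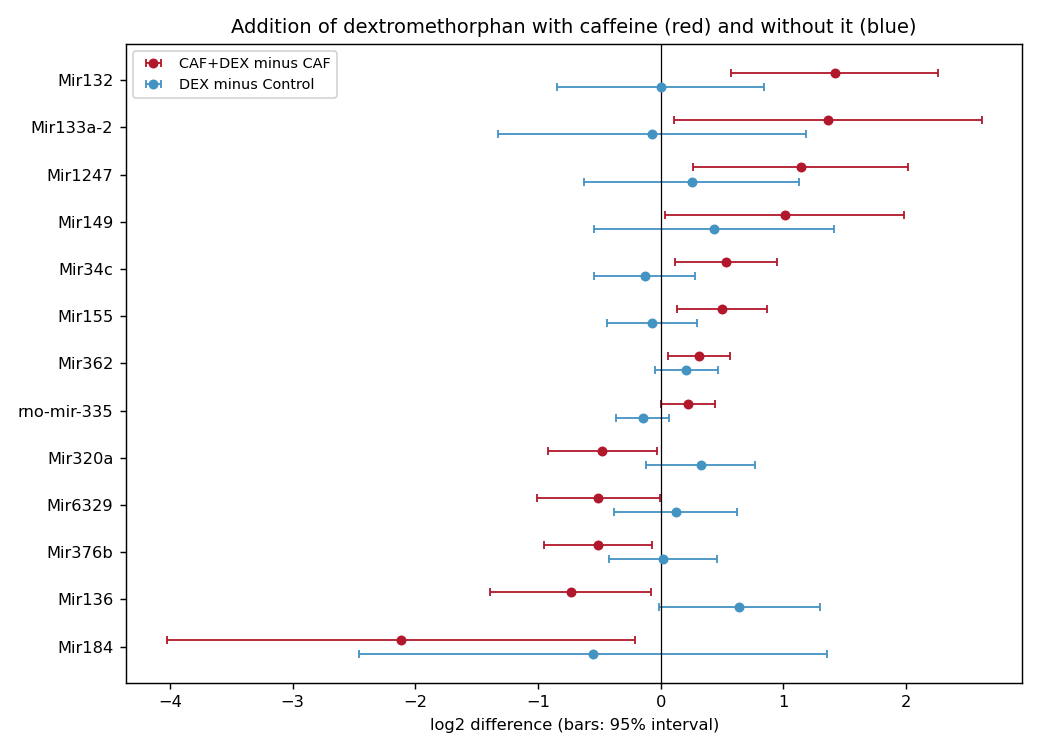
Log2 difference (x axis) with its 95% interval for CAF+DEX minus CAF (red) and DEX minus Control (blue), for the 13 features with an unadjusted p under 0.05 in the first comparison that average over 3 reads in a group (rows); this choice fixes that the red intervals leave out 0. The blue intervals of all 13 include 0, they overlap the red ones in every row except Mir136, and no interaction passed after adjustment.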

How the data were processed

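Small RNA libraries were made with a QIAseq kit with unique molecular indices, per the labels' protocols; their collapse before counting is not stated. The submitters' processing notes name cutadapt 3.7, STAR 2.7.11b, Subread 2.0.6 with featureCounts, and build rn7. The deposited values are FPKM, scaled by the authors to the reads on the listed features: FPKM times length in kb summed to 1000000 in each library. Reads were recovered as multiples of 0.01 read, and 50.5 to 58.3% of values above 0 were whole. Reads need not be independent molecules.

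The test was limma-trend (limma 3.58.1, R 4.3.3) on log2(FPKM + 3.80), the 10th percentile of values above 0, with 4 group means over all 12 libraries and Benjamini-Hochberg adjustment over 276 features at 0.05, two-sided. Differences are on this scale and understate the change of rare features. A fold is given only where a group averages over 3 reads. The script was tested on simulated data. Library numbers are those of the column headers, which name a group but not a sample title.

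Features named are the 20 with the smallest p among those averaging over 3 reads in a group, the 10 most abundant, all leukocyte, erythroid and CREB markers, the 4 smallest p of every other list, Mir192, Mir21, Mir34a and the 3 smallest interaction p; others are named as neighbours or seed relatives of these. Members and lists were chosen with earlier results of these data known. Copies with the same mature sequence share reads and are uncertain as separate features. Alternatives were other pseudocounts, filters and scalings, limma-voom on recovered reads, fewer groups in the fit, leaving out each library and, added after the data were seen, the header number as a block.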

Additional observations from a re-analysis of the deposited data

How the results depend on the processing

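CAF+DEX minus CAF gave 0 calls under every alternative run, the block below included: pseudocounts of 1 FPKM and 10 times the main one, 3 other filters, quantile normalization, median-of-ratios scaling, a fit of only the groups compared, limma-voom, and leaving out each of the 12 libraries. The smallest adjusted p ran from 0.0878 (limma-trend without CAF+DEX library 1) to 0.904 (without DEX library 2). DEX minus Control gave 0 to 1 calls when 1 library was left out (1 without Control library 3, Mir190b), and the interaction gave 0 to 1 (1 without DEX library 4, Mir218-2). Quantile normalization turned the sign of Mir26b (-0.0786), Mir16 (0.061), Mir429 (0.0056), Mir141 (-0.0189) and Mir200b (-0.0618), all near 0; the cause was not tested. Leaving out 1 library turned the sign of features near 0, with ranges of -0.0634 to 0.0118 for Mir101-2, -0.033 to 0.049 for Mirlet7f2, -0.247 to 0.0122 for Mir21, -0.0907 to 0.0867 for Mir148a, -0.0992 to 0.0294 for Mir16, -0.0292 to 0.0595 for Mir101a, -0.0712 to 0.0412 for Mir194-2, -0.0053 to 0.44 for rno-mir-486, -0.0451 to 0.256 for Mir143, -0.207 to 0.0893 for Mir199a2, -0.36 to 0.23 for Mir429, -0.16 to 0.16 for Mir141, -0.31 to 0.36 for Mir200b, -0.138 to 0.0359 for Mir128-1, -0.177 to 0.0598 for Mir7-1 and -0.18 to 0.0451 for Mir802. Of the 74 named features given a fold, leaving out 1 library moved 58 by over 1.5 times, quantile normalization 30 and the larger pseudocount 13. Depth limits the features under 10 reads, none of which had an interval within 1.5-fold. The numbers in the column headers are not those of the sample titles, and no label says what they mark. A fit with the header number as a replicate block, added after the data were seen, gave 0 calls for CAF+DEX minus CAF (16 features with an unadjusted p under 0.05), 1 for DEX minus Control (Mir190b) and 0 for the interaction (14 unadjusted, limma-trend). CAF and CAF+DEX libraries with the same number did not deviate together over 128 features: the correlations of the 3 pairs were 0.07, -0.0364 and -0.0349, and only the libraries numbered 1 correlated best with each other. The interaction needs all groups and was not run in a fit of fewer.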

Other observations

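Features outside the lists and the smallest p-values, chosen after their values were seen, filled in the picture. Mir222, encoded on the X chromosome, was at 67.8, 81.2 and 77.6 FPKM in CAF and at 92.6, 83.6 and 95.3 in CAF+DEX, without overlap, with a log2 difference of 0.25 (SE 0.23). Mir32 was at 1876, 1738 and 1639 FPKM in CAF and at 1567, 1615 and 1592 in CAF+DEX, also without overlap (-0.14, SE 0.08). Of the 6 tested features that the table does not class as microRNAs, the most abundant was Snora58, at 2771 ± 137 FPKM in CAF and 2847 ± 93.4 in CAF+DEX (SD, n = 3), and its log2 difference was 0.04 (SE 0.07). Scarna3 stood at -0.06 (SE 0.17), and all 6 overlapped between the groups.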
